A study of Mus musculus with 4 samples.

Results

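The replication-dependent histone genes were taken as the rows of the deposited gene table whose symbol began with H2ac, H2bc, H3c or H4c followed only by a number, plus H1f1, H1f2, H1f3, H1f4 and H1f5. This gave 56 of 55487 genes: 5 for the linker histone H1, 15 for H2A, 14 for H2B, 12 for H3 and 10 for H4. The rows were picked by symbol alone, although the family was chosen with earlier results of these data known. The libraries were made from Langerhans cells, the dendritic cells that reside in the epidermis, isolated from the ears of wild-type mice. Of these, 2 libraries came from mice treated with imiquimod, an agonist of Toll-like receptor 7 that induces psoriasis-like skin inflammation, and 2 came from mice treated with Vaseline as the negative control. Both groups carried the same wild-type genotype. No dose, duration or animal age is given in the labels used here, nor whether replicate libraries are from different mice. The p-values below therefore measure the spread between libraries, which may be technical. RNA was sequenced as total RNA with a stranded kit for small inputs.

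Core histones form the octamer around which DNA is wrapped, with a pair each of H2A, H2B, H3 and H4, and H1 binds the linker DNA between nucleosomes. The replication-dependent copies lie in gene clusters and are transcribed mainly in S phase, when new DNA has to be packaged. Their mRNAs typically end in a conserved stem-loop and carry no poly(A) tail. The stem-loop is bound by the protein Slbp, which takes part in processing, translation and decay. Such mRNAs are largely missed by libraries primed on poly(A), and total-RNA libraries can record them. In a resting epidermis, Langerhans cells renew themselves by slow division, and keratinocytes of the basal layer divide as well.

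The stem-loop sets the family apart in sequence and is shown for that reason. The letters GGNNNTNNNNANNNCC, with stem arms of 6 complementary bases around a loop of 4 bases, were searched on the transcript strand. For the histone genes this was done in the longest annotated transcript of each. For other genes every protein-coding transcript was searched and a match in any of them counted, so the shares come from unlike searches. The letters were present in 37 of the 56 histone genes (66.1%), against 414 of 21846 other protein-coding genes (1.90%). Of the 19 histone genes without the letters, 14 had an annotated transcript shorter than 450 bases. The sequences below are from GENCODE transcripts on GRCm38, 5′ to 3′ on the strand of the gene, with the stem arms in capitals.
H1f2, chr13:23739507-23739532, plus strand: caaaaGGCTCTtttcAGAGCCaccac
H2bc8, chr13:23571838-23571863, plus strand: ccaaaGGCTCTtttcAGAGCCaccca
H3c4, chr13:23576239-23576264, plus strand: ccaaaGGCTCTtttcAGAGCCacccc
H3c6, chr13:23561898-23561923, minus strand: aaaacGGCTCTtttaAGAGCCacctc
H4c4, chr13:23581945-23581970, plus strand: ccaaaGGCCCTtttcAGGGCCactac
H4c2, chr13:23757361-23757386, plus strand: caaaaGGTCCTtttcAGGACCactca
The stem and loop of H1f2, H2bc8 and H3c4 were shared by 21 genes of the H1, H2A, H2B and H3 classes. The form in H3c6 was found in 5 genes of H2B and H3. The 9 H4 genes with a stem-loop all had a stem like that of H4c4 or H4c2, and none of the 28 other genes had it.

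Several H2A and H2B genes lie head to head, so that 1 stretch of DNA holds the start of both. With starts at most 500 bases apart, 7 such pairs were found among the histone genes. The stretches of 2 pairs are shown, those of H2bc8 and H2bc15, which were among the 3 highest H2B genes per kilobase, in plus-strand letters of RefSeq on GRCm38.p6 between the RefSeq starts. Capitals mark the octamer ATTTGCAT, the TATA box TATAAA and the CCAAT box CCAAT, on either strand.
H2ac8 and H2bc8, chr13:23571221-23571399: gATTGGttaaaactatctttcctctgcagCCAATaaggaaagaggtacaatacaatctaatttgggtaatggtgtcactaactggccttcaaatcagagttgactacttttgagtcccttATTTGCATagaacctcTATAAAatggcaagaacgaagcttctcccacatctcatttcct
H2ac15 and H2bc15, chr13:21753913-21754075: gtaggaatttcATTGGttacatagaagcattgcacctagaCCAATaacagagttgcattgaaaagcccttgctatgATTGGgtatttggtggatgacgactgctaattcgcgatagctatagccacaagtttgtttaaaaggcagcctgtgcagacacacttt
The first stretch held 1 octamer, 1 TATA box and 2 CCAAT boxes, and the second held 3 CCAAT boxes. RefSeq promoter windows, from 250 bases before to 50 bases after the start, were matched for 50 of the 56 genes. The octamer was in 24.0% of them, against 1.71% of 26975 other promoter windows. All of these were H2A promoters (6 of 14) or H2B promoters (6 of 12). The CCAAT letters were in 88.0% of the histone windows, against 37.8% of the others, and only 3 of 9 H4 windows held them. The TATAAA letters were in 60.0%, against 14.1%. These are matches of letters and say nothing of binding.

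The depth and background of the libraries differed. The counts assigned to genes summed to 14902782 and 20690182 in imiquimod libraries 1 and 2, against 41998172 and 76028955 in Vaseline libraries 1 and 2. Genomic background was read from 1473 olfactory and vomeronasal receptor genes, which were taken to be largely silent in these cells. It stood at 0.533 and 1.28 CPM (counts per 1000000 counts of the library, here without TMM scaling) per exonic kilobase in the imiquimod libraries, against 0.376 and 0.0936 in the Vaseline libraries. The TMM factors, which scale a library to the others, were 1.05 and 1.66 with imiquimod, against 0.955 and 0.598 with Vaseline. The Langerhans marker Cd207 (langerin) was present at 1201 and 575 CPM with imiquimod, against 2255 and 6883 CPM with Vaseline. The keratinocyte gene Krt14 exceeded it in every library, at 6502 and 1726 CPM with imiquimod, against 5560 and 7505 CPM with Vaseline, so the isolated cells were not free of keratinocyte RNA. In bulk RNA, fewer cells of a type and less RNA per cell cannot be told apart.

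Histone mRNA was abundant in all 4 libraries. Of the 56 genes, 53 had counts and 52 stood at least 5 times above the receptor-gene background on average. The exception among those with counts was H2ac1, the testis-type H2A gene, at 1.44 times background. Each library was set against its own background, so Vaseline library 2, where it was lowest, weighed most in this average. The 56 genes together took 0.192% of all counts in imiquimod library 1 (95% Wilson interval 0.190 to 0.194) and 0.139% in imiquimod library 2 (0.138 to 0.141). They took 0.190% in Vaseline library 1 (0.189 to 0.191) and 0.314% in Vaseline library 2 (0.312 to 0.315). These intervals cover counting error only, since reads copied by PCR are not independent molecules. The intervals of imiquimod library 1 and Vaseline library 1 overlapped. Imiquimod library 2 was the lowest and Vaseline library 2 the highest, and on this scale the groups overlapped.

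**Figure D1:**
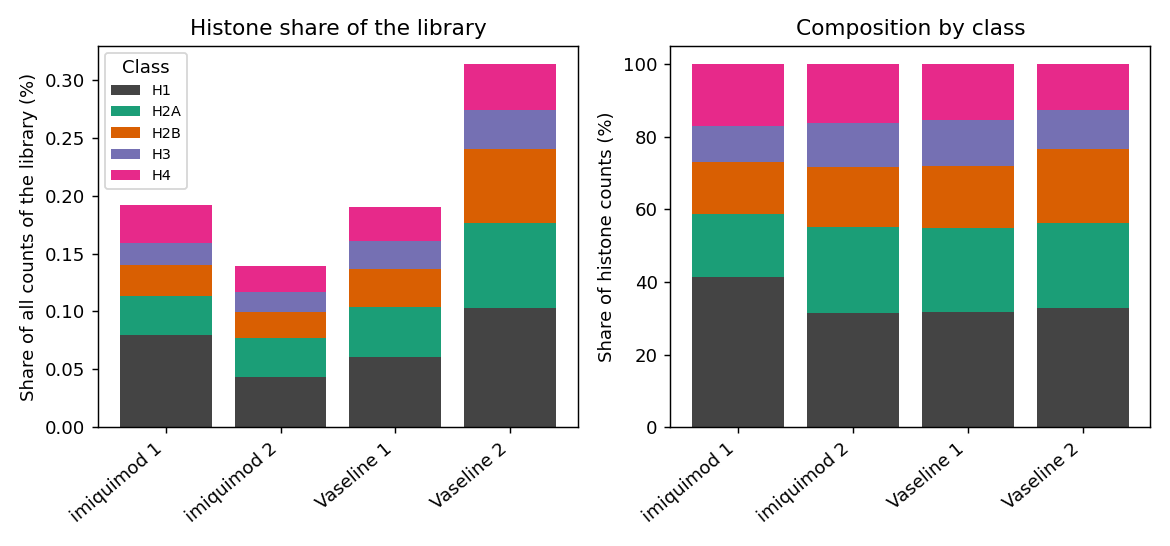
Left: share of all counts of each library (%, linear axis from 0) taken by the replication-dependent histone genes, stacked by class. Right: the same counts as shares of the histone total. The totals are 0.192% and 0.139% with imiquimod and 0.190% and 0.314% with Vaseline, and H1 takes 41.5% of the histone counts in imiquimod library 1 against 31.5% to 32.8% in the other libraries.

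After TMM scaling the summed level was 1830 and 841 CPM with imiquimod, against 1993 and 5247 CPM with Vaseline. On this scale the groups did not overlap, but Vaseline library 1 exceeded imiquimod library 1 only 1.09-fold. The 2 Vaseline libraries differed 2.63-fold from each other and the 2 imiquimod libraries 2.18-fold. The group means had a ratio of 0.369, or 0.658 on shares of the library totals. With 2 libraries against 2, an exact permutation test of such a sum cannot give a two-sided p below 0.333. The order of the libraries was the same for most genes: 50 of the 53 with counts were highest in Vaseline library 2, 50 were lowest in imiquimod library 2, and 40 were higher in Vaseline library 1 than in imiquimod library 1. The receptor-gene background ran in the opposite order at both ends, being highest in imiquimod library 2 and lowest in Vaseline library 2. Subtracting that background from the class sums left the log2 ratio of the group means close to its value without subtraction, at −1.22 and −1.20 for H1, −1.73 and −1.71 for H2A, −1.88 and −1.82 for H2B, −1.57 and −1.52 for H3 and −1.15 and −1.12 for H4.

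The question put to each gene was whether its level differed between imiquimod and Vaseline by more than the spread between libraries. By edgeR's quasi-likelihood test over 39439 genes with Benjamini-Hochberg adjustment, 0 of the 53 histone genes passed an adjusted p of 0.05 in either direction, where 0.0634% of all genes were called higher and 0.137% lower. Without adjustment, 37 were lower and 1 higher at a p under 0.05, against 5.1% lower and 8.63% higher of all genes tested. The log2 fold change of imiquimod over Vaseline was negative for 51 of 53 (39.4% of all genes), with a median of −1.43, beside 0.41 over all genes. Relative to the median of all genes, that of the histone genes was −1.84 on the log2 scale. For 40 genes both imiquimod libraries lay below both Vaseline libraries, which held for 20.9% of all tested genes and 50.5% of genes above background. On library totals alone it held for 31 of them, against 19.4% of genes above background. Genes high in Vaseline library 2, where background was lowest, passed the background cut most easily.

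The size of the difference depended on which genes set the scale. When the fit was limited to the 14479 genes at 5 or more times the background, 48 of 52 histone genes had a negative log2 fold change (44.4% of all genes in that fit) with a median of −0.62, beside 0.08 over all its genes. By edgeR's quasi-likelihood test, 0 histone genes and 0 genes in all (0.0%) were called there, and 15 histone genes had an unadjusted p under 0.05, all lower (4.79% of all genes in that fit). DESeq2 on all tested genes called 12 histone genes lower, where it called 1.69% of all genes lower. These were H2ac4, H2ac10, H2ac11, H2ac12, H2ac14, H2ac15, H2bc4, H2bc8, H2bc9, H2bc15, H3c2 and H3c4, and none belonged to H1 or H4. On the genes above background DESeq2 called H2ac10, H2bc15 and H3c4 lower (1.07% of all genes). limma-voom called H2ac10, H2ac14, H2bc15 and H3c4 lower (0.345%), and edgeR with a stricter count filter called these 4 and H2ac12 (0.434%). Without Vaseline library 1, edgeR called H2ac10, H2ac12, H2ac14 and H3c4 lower (0.768%) and H2ac18 higher (7.17%). The median log2 fold change of the histone genes moved both ways when a library was left out. It was −0.70 without Vaseline library 2, beside 0.15 over all genes, and −1.14 without imiquimod library 2, beside 0.11. It was −2.05 without Vaseline library 1, beside 0.74, and −2.13 without imiquimod library 1, beside 0.49.

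**Figure D2:**
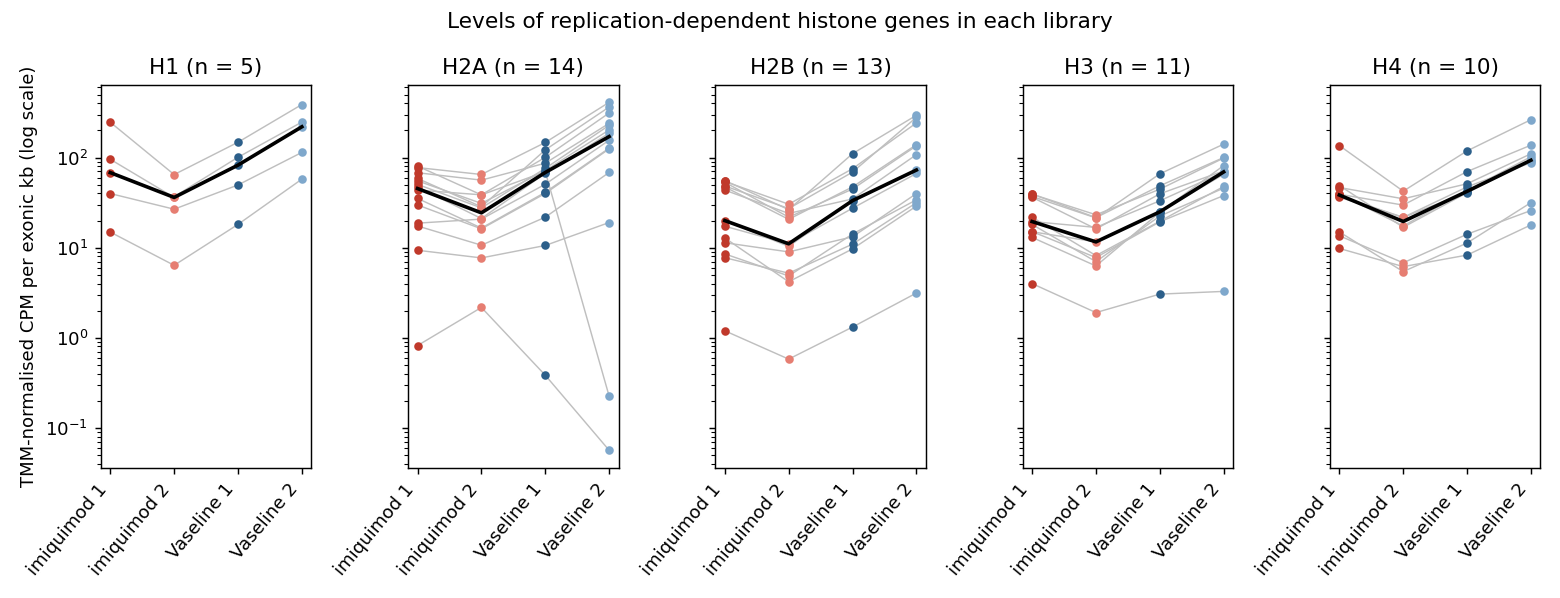
TMM-normalised CPM per exonic kilobase (log axis) of every histone gene with counts, by class, in imiquimod libraries 1 and 2 and Vaseline libraries 1 and 2. Each grey line joins the 4 values of a gene and the black line joins the medians, which are lowest in imiquimod library 2 and highest in Vaseline library 2 in all 5 classes. The 2 H2A lines that go down at Vaseline library 2 are H2ac18 and H2ac1.

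Linker histone H1 took the largest part of the histone counts, which were not divided by gene length here. It took 41.5% and 31.5% of the histone counts in the imiquimod libraries, against 31.9% and 32.8% in the Vaseline libraries, and counting error on any class share was at most 0.571 percentage points. Its 5 genes had a median log2 fold change of −1.31, and 0 passed the threshold. H1f2 (Ensembl ENSMUSG00000036181, chr13:23738808-23740367, plus strand), which encodes linker histone H1.2, was the highest of all 56 genes per exonic kilobase. It measured 246 and 64.7 CPM per kilobase with imiquimod, against 148 and 387 with Vaseline. The groups overlapped, and on a fold scale the imiquimod libraries lay further apart than the Vaseline libraries. Its log2 fold change was −0.79 ± 0.93 (SE, n = 2 each; edgeR adjusted p = 0.628), and 0.060 without Vaseline library 2. H1f5 had 68.0 and 36.7 CPM per kilobase with imiquimod, against 101 and 247 with Vaseline. These groups did not overlap, and the log2 fold change was −1.74 ± 0.72 (edgeR adjusted p = 0.299). H1f4 had 95.6 and 36.1 with imiquimod, against 82.4 and 219 with Vaseline, with imiquimod library 1 above Vaseline library 1. The H1 genes share little sequence: H1f5 shared 0% of its 50-base words with other genes and H1f2 8.54%, and the class median of 2.25% was the lowest of the 5 classes.

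The H2A genes had the lowest median, −1.80 over the 14 with counts, and 12 of these had an unadjusted p under 0.05 with edgeR, 11 of them lower. H2A is exchanged together with H2B as a dimer in the nucleosome. H2ac15 (chr13:21753435-21753827, minus strand) was the highest H2A gene per kilobase, at 77.4 and 64.8 CPM per kilobase with imiquimod, against 147 and 410 with Vaseline. Its imiquimod libraries were close to each other and both lay below the Vaseline libraries, which differed more. The log2 fold change was −1.97 ± 0.70 (edgeR adjusted p = 0.227). H2ac10 (chr13:23533906-23534304, plus strand) had 58.6 and 28.4 CPM per kilobase with imiquimod, against 122 and 363 with Vaseline. Its log2 fold change of −2.50 ± 0.70 was the most negative of all 56 genes (edgeR adjusted p = 0.0849, and 0.00947 by DESeq2). H2ac12 had 43.5 and 38.6 with imiquimod, against 100 and 312 with Vaseline, with a log2 fold change of −2.33 ± 0.68. H2ac14, which GENCODE annotates as an unprocessed pseudogene, had 18.7 and 20.7 CPM per kilobase with imiquimod, against 50.6 and 155 with Vaseline. Its log2 fold change was −2.38 ± 0.64 (edgeR adjusted p = 0.0648, the smallest among the 53 together with H3c4).

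These H2A values are uncertain as values of single copies. H2ac12 shared 90.7% of its 50-base words with other annotated genes and H2ac14 93.1%, against 52.3% for H2ac15. The class median was 67.1%, compared with 41.9% for H2B, 57.2% for H3, 34.2% for H4 and 2.25% for H1. How reads that match several copies were assigned is not given in the sources used here. The 8 tested genes that share at most 10% of their words had a median log2 fold change of −1.25, and the 45 others −1.48.

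H2ac1 was the gene with the highest log2 fold change in the edgeR test. It had 5 and 29 counts with imiquimod, against 6 and 1 with Vaseline. Its level was 1.61 and 2.81 times the receptor-gene background with imiquimod, against 0.974 and 0.360 times with Vaseline. The fitted log2 fold change was 2.95 ± 1.34 (edgeR adjusted p = 0.335), and background, which was higher in the imiquimod libraries, moved with it. Its part in the result was not tested. H2bc1, which lies head to head with H2ac1 and encodes the testis-type H2B, had a log2 fold change of −1.31 (edgeR adjusted p = 0.363).

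H2ac18 (chr3:96245497-96246082, plus strand) overlaps another gene model on chromosome 3, and the part of this overlap in its counts was not tested. It had 737 and 773 counts with imiquimod, against 1635 and 6 with Vaseline. Vaseline library 2, the deepest library, was thus the only one where it was nearly empty. Gm20634, a longer gene model on the same strand (chr3:96245554-96248509) that covers most of H2ac18 and the whole of H3c14, had 541 and 814 counts with imiquimod, against 1698 and 10587 with Vaseline. The 2 genes summed had 1278 and 1587 counts with imiquimod, against 3333 and 10593 with Vaseline. H2ac18 alone had a log2 fold change of 0.76 ± 0.61 (edgeR adjusted p = 0.500), −0.25 without Vaseline library 2 and 7.89 without Vaseline library 1. The SE of 0.61 depended on the fit, being 2.33 with DESeq2 and 1.65 with edgeR on genes above background. It may therefore understate the spread of this gene. For the sum the log2 fold change was −1.31 ± 0.74 (edgeR adjusted p = 0.395), close to the median of the family. limma-voom called H2ac18 higher (0.104% of all genes), with the 6 counts of Vaseline library 2 in the fit.

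**Figure D3:**
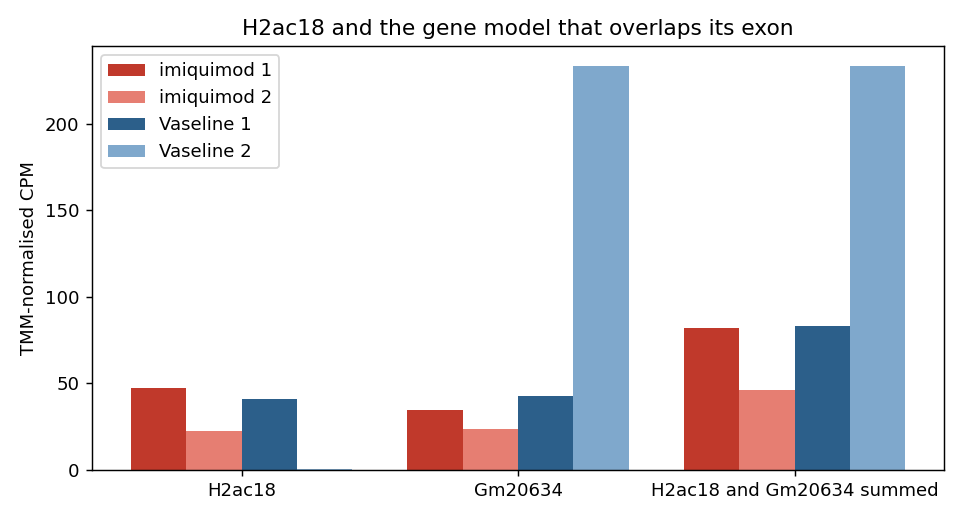
TMM-normalised CPM (linear axis from 0) of H2ac18, of the overlapping gene model Gm20634 and of their sum, in imiquimod libraries 1 and 2 and Vaseline libraries 1 and 2. H2ac18 is at 0.132 CPM in Vaseline library 2, where Gm20634 is at 233 CPM.

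The 3 histone genes without counts lie in the same region of chromosome 3. H2ac19, H3c13 and H2bc18 had 0 counts in all 4 libraries, which allows up to 3 counts in each. H2ac19 lies within Gm20632, an antisense gene model with 873 and 2125 counts with imiquimod, against 4307 and 11898 with Vaseline. H3c13 and H2bc18 lie within the antisense model Gm20628, which had 1244 and 1897 counts with imiquimod, against 4025 and 10249 with Vaseline. The strand setting of the counting is not given in the sources used here, so reads of these histone genes and of the antisense models cannot be told apart, and zero counts do not show that the genes were silent. All 50-base words of H2ac19 (100%) also occur in H2ac18, and 96.3% of those of H2ac18 occur in Gm20632. Over the 51 genes whose exons were not wholly covered by other gene models, the median log2 fold change was −1.48. The 7 tested genes of chromosome 3 had a median of −0.82 and the 46 of chromosome 13 −1.54.

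All 13 H2B genes with counts had a negative log2 fold change, with a median of −1.72. H2bc15 (chr13:21754123-21754503, plus strand), the partner of H2ac15 across the shared stretch printed above, was the highest H2B gene per kilobase. It measured 55.5 and 26.4 CPM per kilobase with imiquimod, against 110 and 294 with Vaseline. The groups did not overlap, and the log2 fold change was −2.33 ± 0.68 (edgeR adjusted p = 0.105). H2bc4 had 48.4 and 27.1 CPM per kilobase with imiquimod, against 68.9 and 279 with Vaseline, the widest gap between Vaseline libraries among the named H2B genes. Its log2 fold change was −2.21 ± 0.78 (edgeR adjusted p = 0.224). H2bc8 had 54.3 and 30.3 with imiquimod, against 75.1 and 242 with Vaseline, and its log2 fold change of −1.92 stood beside −1.86 for its partner H2ac8. Partners were not always alike: H2ac12 was at −2.33 and H2bc12 at −1.10, and H2ac11 at −1.98 and H2bc11 at −1.29. The difference between partners was not tested.

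H3, the core histone whose tail carries many of the known regulatory marks, had a median log2 fold change of −1.38 over 11 genes. H3c4 (chr13:23575763-23577011, plus strand) had the most negative log2 fold change of the class. It had 12.99 and 6.26 CPM per kilobase with imiquimod, against 24.7 and 81.4 with Vaseline. No imiquimod library reached either Vaseline library, which held for 9 of the 11 H3 genes. The log2 fold change of H3c4 was −2.49 ± 0.67 (edgeR adjusted p = 0.0648, and 0.0122 by DESeq2), while the next most negative H3 gene, H3c2, was at −1.84. H3c2 was the highest H3 gene per kilobase, with 37.0 and 21.4 CPM per kilobase with imiquimod, against 65.9 and 141 with Vaseline. H3c6 had 39.4 and 21.5 with imiquimod, against 48.5 and 100 with Vaseline. H3c11 had 39.2 and 23.1 with imiquimod, against 44.5 and 98.7 with Vaseline. In both genes imiquimod library 1 lay just under Vaseline library 1. H3c14, which lies wholly within Gm20634, had the H3 log2 fold change nearest to 0, at −0.16.

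The H4 genes, whose product pairs with H3 in the nucleosome core, had the class median nearest to 0, a log2 fold change of −1.12, and 2 of 10 at an unadjusted p under 0.05. H4c4 (chr13:23581598-23582735, plus strand) was the highest H4 gene, at 136 and 42.3 CPM per kilobase with imiquimod, against 118 and 263 with Vaseline. Its groups overlapped, since imiquimod library 1 exceeded Vaseline library 1, and the log2 fold change was −1.10 ± 0.79 (edgeR adjusted p = 0.464). H4c12 had 39.1 and 29.7 with imiquimod, against 69.8 and 137 with Vaseline, and a log2 fold change of −1.60 ± 0.62 (edgeR adjusted p = 0.278). H4c8 had 46.5 and 34.8 with imiquimod, against 51.1 and 110 with Vaseline, and its log2 fold change was −0.997. H4 took 17.0% and 16.2% of the histone counts with imiquimod, against 15.3% and 12.7% with Vaseline. H2B went the other way, with 14.1% and 16.7% with imiquimod, against 17.1% and 20.3% with Vaseline. These shares do not depend on library scaling, and the group values did not overlap in either. For H2B, however, the Wilson intervals of imiquimod library 2 (16.3% to 17.1%) and Vaseline library 1 (16.9% to 17.4%) overlapped. An exact permutation test of such a share cannot give a two-sided p below 0.333. The medians of the classes kept the same order from H2A (−1.02) to H4 (−0.36) in the fit of genes above background.

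**Figure D4:**
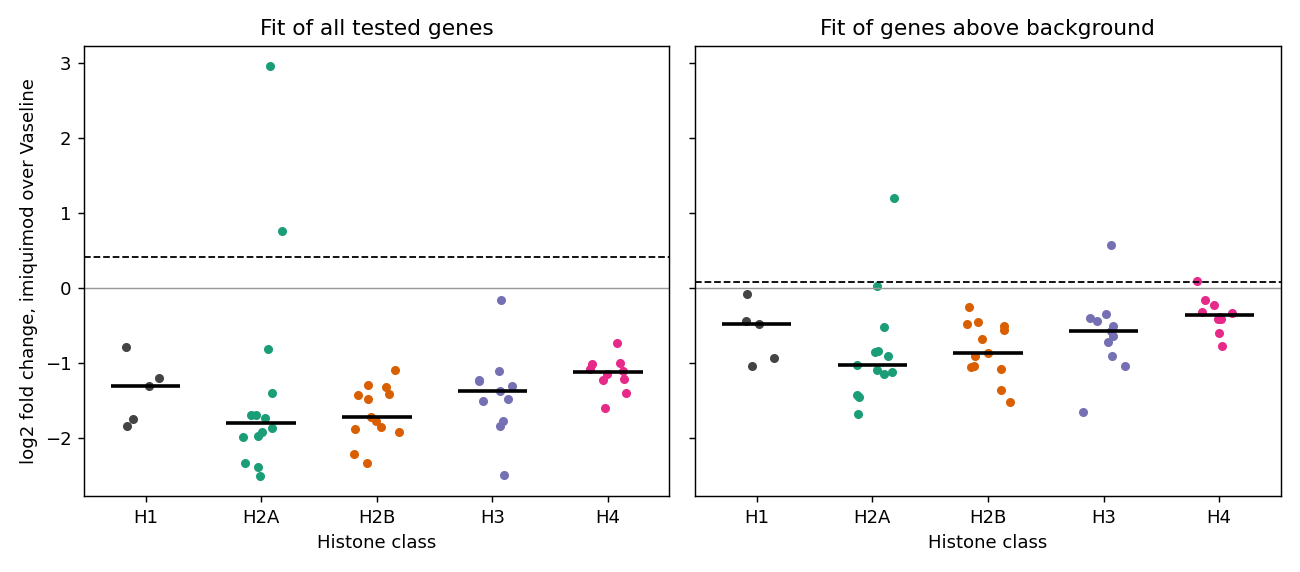
Log2 fold change of imiquimod over Vaseline for each tested histone gene, by class, in the edgeR fit of all tested genes (left) and of genes above background (right). Bars are class medians, at −1.31, −1.80, −1.72, −1.38 and −1.12 on the left for H1, H2A, H2B, H3 and H4, and the dashed line is the median of all genes in the fit, at 0.41 on the left and 0.08 on the right.

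The length of RNA annotated after the stem-loop separated the genes little. Some histone genes are also known to give polyadenylated forms that run past the stem-loop. The 16 tested genes with 200 or more annotated bases after it had a median log2 fold change of −1.26, the 20 with fewer −1.40, and the 17 with no stem-loop in the transcript −1.69. These groups also differ in class and in shared sequence. Outside the rule, 9 rows still carried older cluster names, such as Hist1h2an and Hist1h2bq, and are further copies of H2A, H2B and H4 genes. All 9 had a negative log2 fold change, with a median of −1.33. Hist1h2an, an H2A gene, had 100 and 158 counts with imiquimod, against 687 and 2503 with Vaseline, and was the 1 among them that fell past the threshold, with a log2 fold change of −2.74 (edgeR adjusted p = 0.0235). That call was not made in the fit of genes above background (log2 fold change −1.85, edgeR adjusted p = 0.428), nor by edgeR without Vaseline library 2 (−1.68), imiquimod library 1 (−3.05) or imiquimod library 2 (−2.50).

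Genes that act with the histones were read from the same fit. The replication-independent histones are not limited to S phase and are made mostly from polyadenylated mRNAs. They had 11 of 11 log2 fold changes negative, with a median of −1.32 and 0 past the threshold. H3f3a, which encodes the variant H3.3, had 86.7 and 55.1 CPM with imiquimod, against 205 and 367 CPM with Vaseline, and a log2 fold change of −2.01 ± 0.83. H2az1, which encodes H2A.Z, had 82.1 and 42.1 CPM with imiquimod, against 170 and 363 CPM with Vaseline. Both showed the library order of the replication-dependent genes, but not every gene of this list did. H3f3b had 672 and 241 CPM with imiquimod, against 496 and 1192 CPM with Vaseline, with imiquimod library 1 above Vaseline library 1. Its log2 fold change was −0.89 (edgeR adjusted p = 0.647), and −0.15 in the fit of genes above background. For the factors of histone transcription and 3′ processing the median of 15 genes was −0.59, with 0 past the threshold in either direction, and it turned to 0.13 over the 14 in the fit of genes above background. Slbp, the stem-loop binding protein, had 46.1 and 25.4 CPM with imiquimod, against 66.3 and 94.7 CPM with Vaseline (log2 fold change −1.18 ± 0.67, edgeR adjusted p = 0.395). The 7 genes of histone mRNA decay had a median of −0.83 and the 18 chaperones −1.14, with 0 past the threshold in both.

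S-phase genes had a median log2 fold change of −1.45 over 25 genes, all negative and 0 past the threshold. Pcna, the sliding clamp of DNA polymerase, had 71.9 and 26.6 CPM with imiquimod, against 115 and 198 CPM with Vaseline. In the mitosis list all 20 were negative with a median of −1.95, and Ccnb2 and Bub1 fell. Ccnb2, a mitotic cyclin, had 7.41 and 5.60 CPM with imiquimod, against 27.8 and 53.0 CPM with Vaseline (log2 fold change −2.65, edgeR adjusted p = 0.0332). Bub1, a kinase of the spindle checkpoint, had 2.94 and 3.44 CPM with imiquimod, against 12.5 and 31.1 CPM with Vaseline (log2 fold change −2.75, edgeR adjusted p = 0.0235). Neither call was made by edgeR in the fit of genes above background, nor without Vaseline library 2, imiquimod library 1 or imiquimod library 2. Of the non-polyadenylated RNAs other than histones, all 5 tested were negative with a median of −0.35, which turned to 0.50 in the fit of genes above background. Rmrp, the RNA of the mitochondrial RNA processing ribonuclease, was nearly level, with 918 and 754 CPM with imiquimod, against 737 and 1161 CPM with Vaseline.

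**Figure D5:**
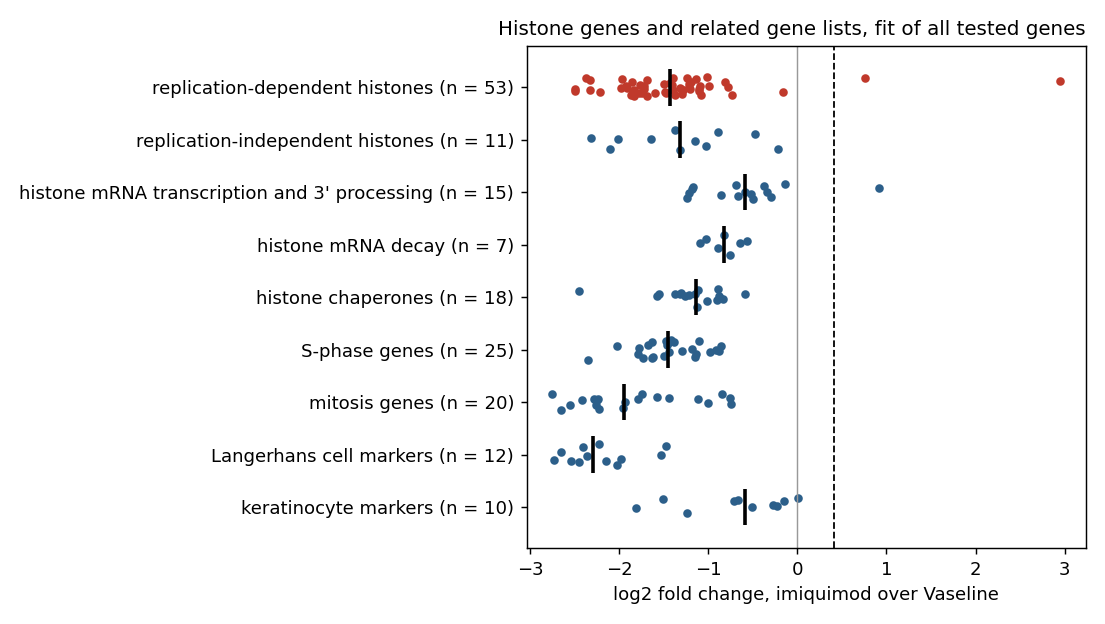
Log2 fold change of imiquimod over Vaseline in the edgeR fit of all tested genes, for the replication-dependent histone genes (top, red) and for 8 lists of related genes and markers (blue). Black bars are medians, at −1.43 for the histones, −1.45 for S-phase genes, −1.95 for mitosis genes, −2.30 for Langerhans cell markers and −0.59 for keratinocyte markers, and the dashed line is the median of all genes, at 0.41.

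Markers of some cell types shared the library order of the histone genes and others did not. The 12 Langerhans markers summed to 9817 and 8307 CPM with imiquimod, against 26478 and 69148 CPM with Vaseline, all 12 with a negative log2 fold change and a median of −2.30. The 10 keratinocyte markers summed to 21654 and 5724 CPM with imiquimod, against 22044 and 25532 CPM with Vaseline, with a median of −0.59 that was 0.0054 in the fit of genes above background. Imiquimod library 2 was thus the lowest in histones, Langerhans markers and keratinocyte markers, and Vaseline library 2 the highest in all 3. The 10 T cell markers summed to 249 and 200 CPM with imiquimod, against 366 and 385 CPM with Vaseline, with a median log2 fold change of −0.36 that was 0.37 in the fit of genes above background. Some other lists had a positive median log2 fold change, but their sums were not always higher with imiquimod. The 8 activated keratinocyte markers summed to 1498 and 625 CPM with imiquimod, against 371 and 885 CPM with Vaseline, with a median of 1.07 and 1 of 8 negative. Among them edgeR called S100a8 higher (adjusted p = 0.0193) and Stfa3 lower (adjusted p = 0.00256). The 10 neutrophil markers, with a median of 1.32 and 2 of 10 negative, were low, at 23.3 and 75.4 CPM with imiquimod, against 26.9 and 19.1 CPM with Vaseline. Only 2 of these 10 stood at least 5 times above the receptor-gene background, which was higher in the imiquimod libraries. Among the 10, edgeR called Mmp8 higher (adjusted p = 0.00121). The 8 monocyte and macrophage markers summed to 209.5 and 243 CPM with imiquimod, against 267 and 385 CPM with Vaseline, with a median of 0.28. Fibroblast, melanocyte, B cell and erythroid markers summed to at most 141 CPM in any library, with medians of −0.77, 0.46, 0.85 and 0.14 in that order. Of the melanocyte and erythroid markers, 0 stood at least 5 times above background. EdgeR called Col3a1 (adjusted p = 0.0408) and Ighm (adjusted p = 0.00199) lower. In the fit of genes above background, 0 markers were called in any of these lists. The part of these cell types in the histone values was not tested.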

How the data were processed

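RNA from isolated Langerhans cells was made into total-RNA libraries with a stranded kit for small inputs, per the labels' protocols. The authors deposited 1 table of counts per gene for 4 libraries (2 imiquimod, 2 Vaseline). Named in the submitters' processing notes are HISAT2, StringTie, SAMtools and Trimmomatic, and the build GRCm38; versions, strand setting and the treatment of reads that match several genes are not given in the sources used here. All comparisons start from the deposited counts. The main test was edgeR 4.0.16 (glmQLFit with legacy=FALSE, TMM, filterByExpr) over all 39439 genes that passed the filter, with an adjusted p threshold of 0.05; DESeq2 1.42.0 and limma-voom (limma 3.58.1) were alternatives. The fitting code was tested on simulated data. Levels are TMM-normalised CPM, divided by GENCODE vM21 exonic length in kilobases where a level per kilobase is given. Genes above background had at least 5 times the receptor-gene level, as the mean over the 4 libraries of the ratio to each library's own level. That level was lowest in Vaseline library 2 (0.0936 CPM per exonic kilobase) and highest in imiquimod library 2 (1.28). Genes high in Vaseline library 2 therefore passed most easily, and genes high with imiquimod less so. Named are the 3 highest genes per kilobase in each class and up to 5 of smallest p in each direction. In the related lists, the choice was up to 3 of smallest p and a few fixed genes, and not all of these are printed. The histone genes and all lists were chosen with earlier results of these data known. Replicate numbers are shared by the 2 groups only as labels.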

Additional observations from a re-analysis of the deposited data

How the results depend on the processing

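The main edgeR test called 0 histone genes lower. DESeq2 called 12, DESeq2 on genes above background 3, limma-voom 4 and a stricter count filter 5. Leaving out a library gave 0 to 4, the 4 without Vaseline replicate 1. Calls of higher were 0, except 1 with limma-voom and 0 to 1 with a library left out. The median log2 fold change of −1.43 was −0.62 on genes above background and −0.56 on library totals, and ranged from −2.13 to −0.70 with a library left out. Library totals moved the median of all genes to 1.30; relative to it the histones lay 1.86 lower (−1.86). On library totals the log2 ratio of group means of the summed classes was −0.40 for H1 (−1.20 with TMM), −0.82 for H2A (−1.71), −0.93 for H2B (−1.82), −0.68 for H3 (−1.52) and −0.32 for H4 (−1.12). The 2 related genes called lower became 23 with DESeq2, 10 with DESeq2 on genes above background, 8 with limma-voom and 9 with the stricter filter. They became 0 with RLE factors, library totals, no filter, genes above background and the older quasi-likelihood form, and 0 to 10 with a library left out. Named genes changed sign without Vaseline replicate 2, H1f2 to 0.060 and H2ac18 to −0.25 (H2ac18 was 7.89 without Vaseline replicate 1), and H2ac18 was −1.31 when joined with Gm20634; the cause was not tested. Of 319 alternatives for named genes, 289 kept direction and side of the threshold and 27 passed it. Same-numbered libraries deviated against each other (r = −0.43 over 39439 genes). With the replicate block 0 histone genes and 0 related genes were called, and with the crossed pairing, chosen after seeing the data as were the older form, the DESeq2 fit above background and the joined gene, also 0 and 0. With 2 libraries a group, the imiquimod libraries being the shallower, differences within the spread of the Vaseline pair were not detectable.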
